A study of Mus musculus with 4 samples.

Results

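Nuclei with markers of immature neurons were looked for in a single-nucleus RNA survey of the mouse hippocampus, in which wild-type tissue was set beside tissue lacking monoacylglycerol lipase (MAGL). MAGL, encoded by Mgll, is an enzyme that breaks down an endocannabinoid lipid. A nucleus was taken as a member when it held at least 500 detected genes and at least 3 of the 6 transcripts Igfbpl1, Draxin, Eomes, Sox11, Sox4 and Dcx. Igfbpl1, Draxin or Eomes had to be among them, at most 1 of the Cajal-Retzius transcripts Trp73, Lhx1 and Lhx5 could be present, and Gad1 and Gad2 together could have at most 1 unique molecular identifier (UMI, 1 counted RNA molecule). Of 60288 barcodes in all, 59750 held 500 genes and 224 met the whole rule. The levels of these 11 genes chose the members and are given as description only. In the mm10 build, Igfbpl1 lies on chr4:45809468-45826923 and Draxin on chr4:148098437-148130698, both on the minus strand, Eomes on chr9:118478212-118486132 on the plus strand, and Sema3c, a marker outside the rule that recurs below, on chr5:17574281-17730268 on the plus strand, all protein coding.

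The 4 libraries held 1 genotype each, labelled Wild type, Total/global MAGL-KO, Astrocyte specific MAGL-KO and Neuron specific MAGL-KO, and are named here by their label (the astrocyte-labelled library and so on). All came from hippocampus. The sources used here do not give age, sex, strain, the number of animals or the promoter or Cre line behind the 2 cell-specific knockouts. Where 4 values stand in a row, they follow the order wild type, total, astrocyte, neuron. With 1 library per genotype there was no replicate check of any difference between genotypes, so no test was run, and every interval below covers counting error only. Mgll, the targeted gene, stood in granule neuron nuclei at 122, 98.1, 140 and 130 CPM (UMIs of the gene per 1000000 UMIs). Those sources do not say how much of Mgll the knockouts lack, and UMIs may come from what remains, so these levels are no check on the genotypes.

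In the dentate gyrus of rodents, granule neurons go on being made from stem cells at the inner edge of the granule layer. Intermediate progenitors with the transcription factor Eomes give rise to young neurons with doublecortin (Dcx) and Sox11, which take on the granule identity factor Prox1 and later lose Dcx and gain mature genes such as Calb1. Draxin is a secreted guidance protein that binds the netrin receptors Dcc and neogenin, and Igfbpl1 is a secreted relative of the growth factor binding proteins used as a marker of young neurons.

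Members were rare in every library, with the lowest shares in the 2 cell-specific knockout libraries. Wild type had 44 among 9304 nuclei (0.473%, Clopper-Pearson 95% interval 0.344 to 0.634) and the total-labelled library 135 among 30929 (0.436%, 0.366 to 0.516). The astrocyte-labelled library had 22 among 10664 (0.206%, 0.129 to 0.312) and the neuron-labelled one 23 among 8853 (0.260%, 0.165 to 0.390). Eomes was not listed in the astrocyte-labelled and neuron-labelled files, nor was Lhx1, so the Eomes arm of the rule could pick nuclei in the other 2 libraries only. Lhx5 was not listed in the neuron-labelled file either, so the limit of at most 1 of Trp73, Lhx1 and Lhx5 could reject no nucleus there. There 9 wild-type and 24 total-labelled members held Eomes. With Eomes not counted in any library, wild type had 37 members (0.398%, 0.280 to 0.548) and the total-labelled library 113 (0.365%, 0.301 to 0.439). The wild-type interval then overlapped those of both cell-specific knockout libraries, whose counts were the same as before. By the full rule, 176 members held Igfbpl1 without Eomes and 15 held Draxin alone of the 3 required genes.

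Depth and doublet calls differed between the libraries, and their part in these numbers was not tested. The median member held 5767, 6014, 8484 and 11153 UMIs. After every nucleus was thinned to 2000 UMIs, leaving out 509, 3597, 302 and 453 shallower nuclei, 11, 30, 3 and 4 nuclei met the rule (0.125%, 0.110%, 0.0290% and 0.0476% of the nuclei left). Scrublet called 81 of the 135 total-labelled members doublets, but 3 of the 44 in wild type and, by knockout label, 6 of 22 (astrocyte) and 1 of 23 (neuron). Over all barcodes it called 23.5% in the total-labelled library and 3.55%, 5.68% and 1.72% in the others. Without called doublets the share of members was 0.457% in the wild-type and 0.229% in the total-labelled library, with 0.159% for astrocyte-labelled and 0.253% for neuron-labelled nuclei, so the total-labelled share then lay between the last pair. Members with a Y-linked transcript and no Xist numbered 23, 123, 3 and 7, and members with Xist and no Y-linked transcript 12, 0, 11 and 12. The mix of sexes among members thus differed between the libraries along with the genotype label. No member shared its barcode with a member of another library, and 8 members had a barcode that also occurred among other nuclei of another library.

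**Figure D1:**
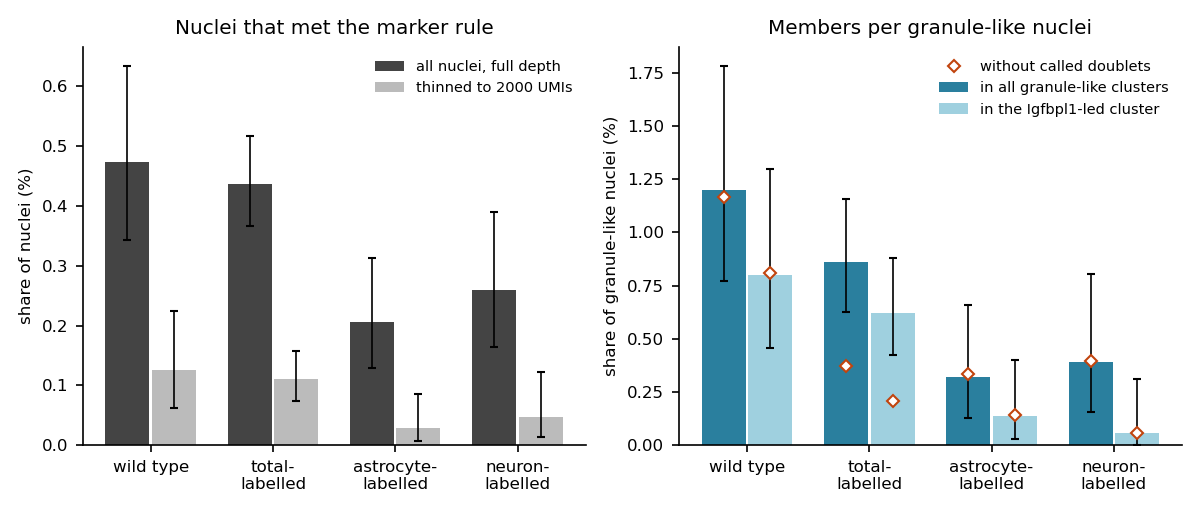
Left, share of nuclei that met the marker rule in each library at full depth and after thinning to 2000 UMIs. Right, members as a share of granule-like nuclei, with diamonds for the value without called doublets. Bars start at 0 and error bars are Clopper-Pearson 95% intervals for counting error. Without doublets the wild-type value in all granule-like clusters is 1.17% (1.20% with them) and the total-labelled value 0.370% (0.861% with them).

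The label of immature dentate neurons fitted some of the members and not others. All nuclei were clustered without the genes of the rule, and the members fell into 36 of 60 clusters. A cluster of 847 nuclei held 51 of them. It is called granule-like because it held 7 of 8 granule neuron markers (Prox1, C1ql2, Dsp, Stxbp6, Calb1, Trpc6 and Rfx3), and its leading genes began with Igfbpl1 and Prox1, so it is referred to as the Igfbpl1-led cluster. These markers were held by the cluster as a whole, of which 796 nuclei were not members. Levels in its members are given below. A further 30 members lay in 5 other granule-like clusters. Thus 81 of the 224 members lay among granule-like nuclei and 143 did not. This split depended on the Leiden resolution of the clustering. By library the 81 were 24, 43, 7 and 7. A resolution of 2.5 gave the same numbers, and 1.0 gave 10, 14, 5 and 6. The wild-type and total-labelled values at 1.0 were below the 16 and 31 Igfbpl1-led members of these libraries. Some Igfbpl1-led members thus left the granule-like class at 1.0, and how many did was not tested.

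Outside the granule-like clusters the members were of several kinds. A cluster led by Zic4 and Ano1 held 33 members, of which 2 had a Prox1 UMI, and the cluster itself held 5 of 10 inhibitory neuron markers, Gad1 and Gad2 included. A cluster led by Ebf2 and Ebf3 held 25 members, all with Eomes and 5 with Prox1. It held 2 of 8 Cajal-Retzius markers, too few for a name. The last 85 members were spread over 28 clusters of many kinds, 11 of them in an oligodendrocyte-like cluster, and Scrublet called 47 of these 85 doublets. Of nuclei with at least 4 oligodendrocyte markers, 15 of 2716 (0.552%, 0.309 to 0.909) met the rule. The share of nuclei that met the rule was 6.02% (4.52 to 7.84) in the Igfbpl1-led cluster, at a median of 1656 UMIs per nucleus, 8.56% (5.62 to 12.4) in the Ebf2 Ebf3 cluster and 3.06% (2.11 to 4.26) in the Zic4 Ano1 cluster. Outside these and the other granule-like clusters, and counting clusters without a member, it was 0.179% of 47401 nuclei, at a median of 7092 UMIs. Clusters were drawn from the same counts as the members, so the places of members are a description.

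**Figure D2:**
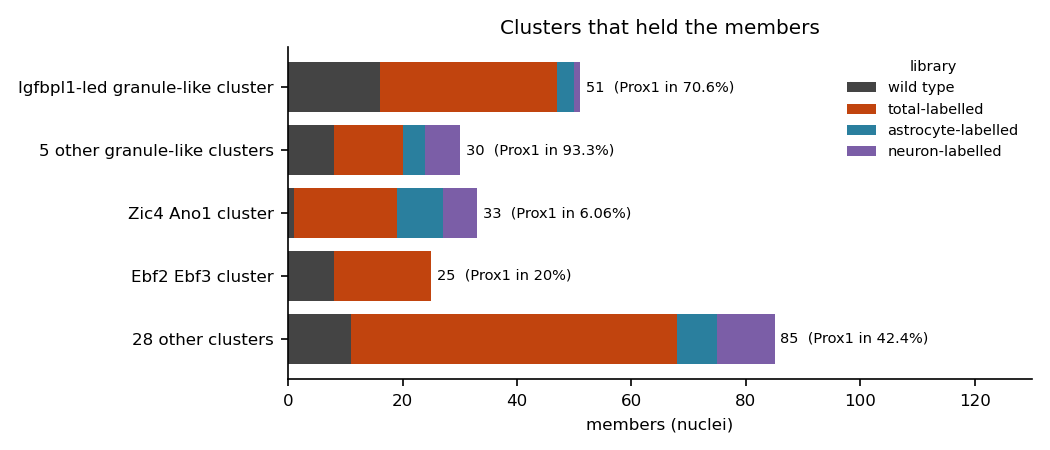
Number of members in each group of clusters, coloured by library, with the share of those members that held a Prox1 UMI. Prox1 was not used by the rule, but it was among the markers by which clusters were called granule-like, so its share by cluster is a description. It was present in 70.6% of members in the Igfbpl1-led cluster and in 6.06% of those in the Zic4 Ano1 cluster.

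Members of the Igfbpl1-led cluster carried the transcripts of young granule neurons at high level. Sema3c, a secreted semaphorin that guides axons and a marker not used by the rule, had 59 UMIs in 16 wild-type members (1309 CPM), 51 in 31 total-labelled members (671 CPM), 10 in 3 astrocyte-labelled members (668 CPM) and 0 in the single neuron-labelled member. In granule nuclei, defined by Prox1 and at least 4 of 8 granule markers, it stood at 2.37, 4.75, 1.72 and 1.97 CPM in that order. All 3 libraries with more than 1 such member were therefore far above their own granule nuclei. Summed over libraries, the 120 observed UMIs compared with 0.496 expected from granule nuclei of the same libraries, a log2 ratio of 6.34 (6.07 to 6.59, with 1 UMI added to both). A Sema3c UMI was present in 68.6% of these members at a median depth of 2509 UMIs, against 2.78% of oligodendrocyte nuclei at 2107 UMIs, a type taken to lack it. Sema3c and most other genes outside the rule were not kept out of the clustering. Their levels in members of this cluster are therefore a description and no independent check.

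Nnat, Neurod1 and St8sia2 were also higher in these members. Nnat, an imprinted gene of developing neurons, had 123 UMIs against 5.85 expected (log2 ratio 4.18, 3.91 to 4.43). By library Nnat stood at 1309 CPM in wild-type, 566 in total-labelled and 1269 in astrocyte-labelled members, each above the 27.0 to 51.9 CPM of granule nuclei, and the single neuron-labelled member held 2 Nnat UMIs. Neurod1, a proneural transcription factor of the granule lineage, had 20 UMIs against 2.60 (log2 ratio 2.55, 1.88 to 3.15). St8sia2, which makes the polysialic acid of young neurons, stood at 102 CPM (55.8 to 171) against 0.489 in granule nuclei, from 14 UMIs. Tac2 and Calb2, both transient markers of young granule neurons, had 7 and 5 UMIs (51.1 and 36.5 CPM) against 0.726 and 0.931 CPM. Of the 14 listed markers of neuroblasts and young granule neurons outside the rule, 13 were present in these members, Gal being at 0. Their summed level was 2597 CPM against 391 expected, of which Sema3c made up 876 and Nnat 897 CPM, the only 2 of the 14 with enough UMIs for the count of genes.

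**Figure D3:**
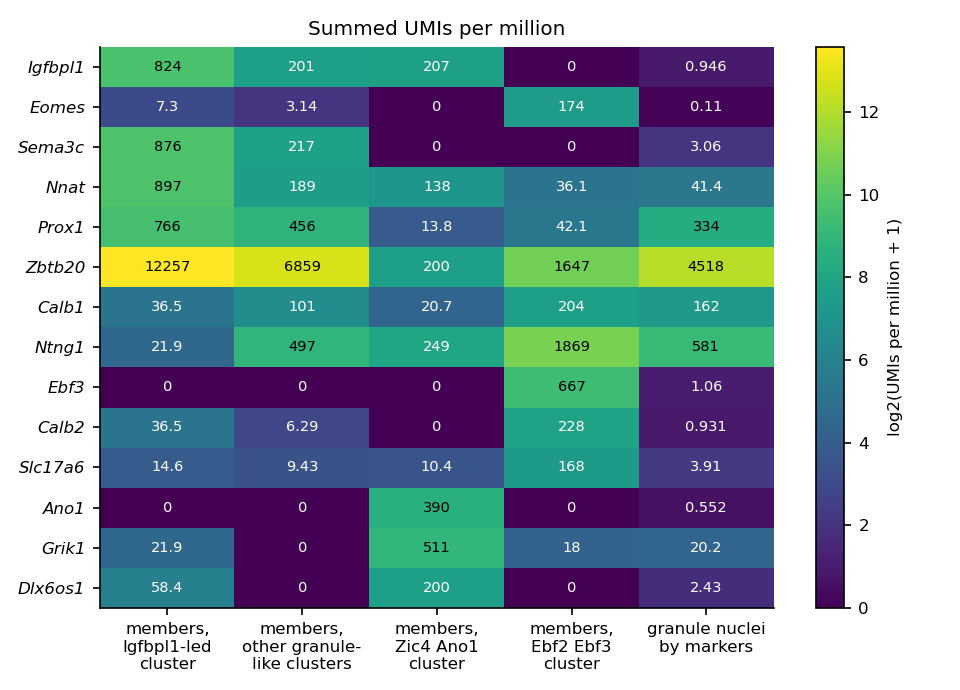
Summed level in CPM in members of 4 groups of clusters and in granule nuclei, for genes of the rule (Igfbpl1, Eomes) and genes outside it, coloured on a log2 scale. Genes outside the rule were not kept out of the clustering, so their levels by cluster are a description. Sema3c is at 876 in the Igfbpl1-led cluster and at 0 in members of the Zic4 Ano1 and Ebf2 Ebf3 clusters, where Ano1 and Ebf3 are high instead.

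Most markers of dividing cells and stem cells were at 0 in the Igfbpl1-led members. Of 14 transcripts of dividing cells, 12 were at 0, Mki67 and Top2a among them, where 137061 UMIs in all allow up to 21.9 CPM (3 counts) for each. The list summed to 29.2 CPM against 35.0 expected from granule nuclei, so its zeros do not set these members apart from granule nuclei at this depth. Of 10 stem cell markers 8 were at 0, and the summed level of the list was 80.3 CPM against 102 expected. Of 10 intermediate progenitor markers 6 were at 0, including Neurog2 and Tfap2c, while Cdk6 had 12 UMIs (87.6 CPM against 18.8 in granule nuclei) and the list summed to 124 CPM against 27.7 expected. Vascular markers were all at 0. Inhibitory neuron markers summed to 343 CPM against 1845 expected, with Gad1 and Gad2 limited by the rule. Adarb2, which granule nuclei hold, made up 1811 CPM of that expected sum and stood at 204 CPM in these members. CA pyramidal markers summed to 94.8 against 423 and astrocyte markers to 445 against 902. Of the CA pyramidal list only Cpne4 had enough UMIs for a ratio (log2 ratio -2.52), and 6 astrocyte markers were at 0. These 3 sums rest on few genes, so no lack of those cell types is read from them. The sums for oligodendrocytes (65.7 against 41.2), their precursors (58.4 against 24.1), microglia (36.5 against 58.6) and mossy cells (43.8 against 69.9) rested on a few UMIs each, and no direction is read from them. In 2 of the 51 members 3 or more inhibitory markers were present, and in none 3 or more oligodendrocyte markers. These measurements were made on members that include 22 called doublets, all of them total-labelled.

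Against granule nuclei, 126 of 1010 genes with enough UMIs (12.5%) were at least 2-fold higher and 173 (17.1%) at least 2-fold lower in these members. Enough means 50 observed plus expected UMIs, and the median log2 ratio over the 1010 genes was 0.09. Without called doublets 69 genes were higher and 112 lower of 533, without the wild-type library 68 and 109 of 638, and without the total-labelled library 53 and 77 of 351. Granule nuclei of 1355 to 4368 UMIs, closer in depth to the members but still deeper (median 3587 UMIs against 2509), left 86.5% of the higher and 87.9% of the lower genes called. Non-member nuclei of the other granule-like clusters left 95.2% and 97.1%.

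After Sema3c and Nnat, the highest genes in these members were of several kinds. The transcription factor Bach2 had 104 UMIs against 9.09 expected (log2 ratio 3.38), the signalling regulator Rgs6 133 against 12.3 (3.33) and the protocadherin Pcdh15 239 against 23.0 (3.32). Ttc28, the receptor phosphatase Ptpro, the cadherin Cdh10, Zfp385b, Plppr1 and Mir99ahg followed with log2 ratios from 2.28 to 3.06. In the wild-type library alone, the ratios of these 9 genes lay between 2.14 and 3.91, and in the total-labelled library between 1.84 and 3.30, so both of the larger groups of members stood on the same side. The genes were named by rank, having at least 100 observed plus expected UMIs, after their values were seen.

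**Figure D4:**
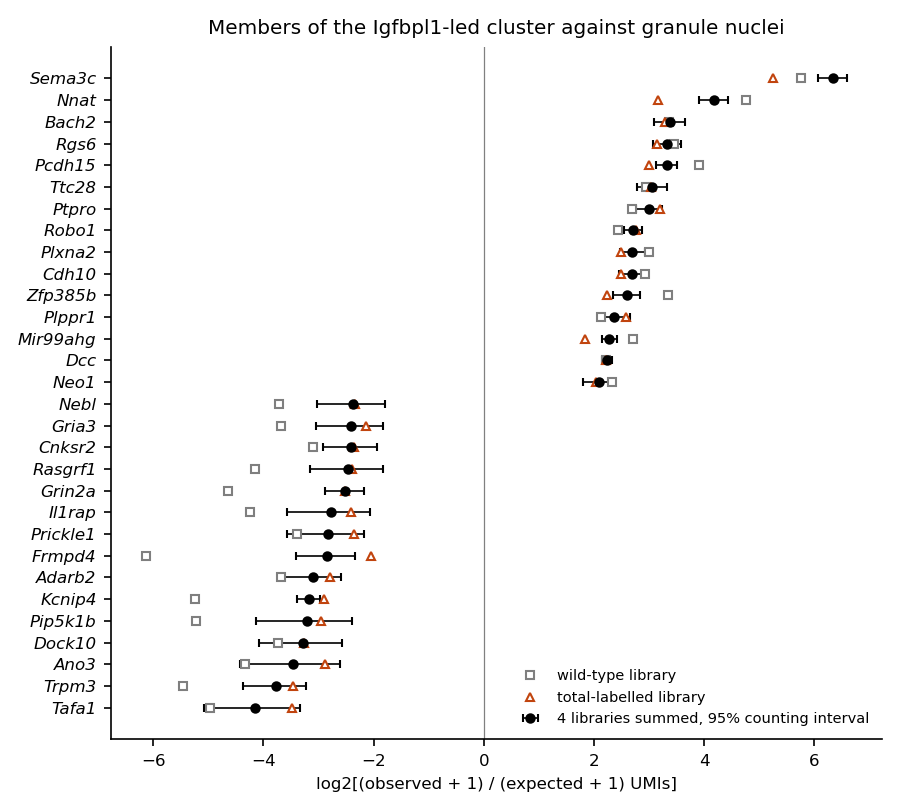
Log2 ratio of observed to expected UMIs (1 added to each) in members of the Igfbpl1-led cluster, for the 15 highest and 15 lowest genes with at least 100 UMIs. Black points and bars are the 4 libraries summed with a 95% counting interval, open squares the wild-type and open triangles the total-labelled library. Both libraries lie on the same side of 0 for all 30 genes, and the lower genes lie further from 0 in the wild-type library.

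Some guidance receptors and ligands were higher and others lower in these members. Of 29 genes listed for axon guidance and adhesion, 21 had enough UMIs, 8 were at least 2-fold higher and 5 at least 2-fold lower, beside 12.5% and 17.1% of all genes, with a list median of 0.62 beside 0.09 for all genes. Dcc, the netrin and draxin receptor, stood at 8122 CPM in wild-type, 6937 in total-labelled and 6545 in astrocyte-labelled members, against 1276 to 1722 CPM in granule nuclei (log2 ratio 2.23, 2.14 to 2.32). Neo1, which encodes neogenin and is not one of the 29 listed genes, had 104 UMIs against 23.5 (2.10). The Slit receptor Robo1 (2.72), the semaphorin receptor subunits Plxna2 (2.70), Nrp2 (1.75) and Nrp1 (1.42) and the ligands Sema3e (2.73) and Sema6d (1.67) were also higher. By contrast Slit1, a ligand of Robo receptors, had 4 UMIs against 47.7 (-3.28), and the receptors Unc5c (-2.31), Robo2 (-2.02), Epha5 (-1.60) and Unc5d (-1.12) were lower. Unc5d was lower in the total-labelled library (-2.12) and not in the wild-type one (0.21).

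Of 27 listed transcription factors of the granule lineage, 9 had enough UMIs outside the rule. Of these 5 were at least 2-fold higher and 0 lower, beside 12.5% and 17.1% of all genes. They were Nfix (1.88), Nfia (1.68) and Nfib (1.46), factors of glial and neuronal maturation, Zbtb20 (1.46), a hippocampal patterning factor, and Prox1 (1.18). Prox1 stood at 644 CPM in wild-type, 882 in total-labelled and 601 in astrocyte-labelled members, against 327 to 339 CPM in granule nuclei, though all granule nuclei had been required to hold it. The list median was 1.18. Of 20 genes of the young neuron cytoskeleton only 4 had enough UMIs and none differed 2-fold. Among them Map1b (0.07) and Dclk1 (-0.25), which stabilise microtubules, were near their expected sums. With equal weight for each library 1 cytoskeleton gene passed 2-fold, and with at least 20 UMIs 7 did.

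Mature transcripts were low. Calb1, the calcium buffer of mature granule neurons, had 2 UMIs in wild-type (44.4 CPM) and 3 in total-labelled members (39.5 CPM) and none in the other libraries, against 126 to 216 CPM in granule nuclei. Ntng1 had 3 UMIs against 83.0 (log2 ratio -4.39, -5.70 to -3.10) and Kcnip4, a subunit of A-type potassium channels, 191 against 1737 (-3.18, -3.39 to -2.97). Kcnip4 was at 311 CPM in wild-type, 1685 in total-labelled and 3273 in astrocyte-labelled members, against 12582 to 13459 in granule nuclei, so each was low and the wild-type members lowest. The channel subunits Kcnd2 (-1.61) and Cacna2d1 (-1.03) were lower as well. Of 17 measured of 18 ion channel genes, 3 were lower and 2 higher, the latter including Kcnb2 (1.18), shares close to the 17.1% and 12.5% of all genes. Dsp and Tdo2 were at 0. The 8 granule neuron markers summed to 2605 CPM against 4304 expected. Of the 4 with enough UMIs, Trpc6 and Stxbp6 were at least 2-fold lower and only Prox1 at least 2-fold higher. Granule nuclei had been chosen by Calb1, Dsp, Tdo2 and 5 more genes, so those 8 were bound to be high in the reference.

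Among synaptic genes the counts were small. Among 12 measured of 19 glutamate receptor genes, 3 were at least 2-fold lower, Grin2a (-2.52) and Gria3 (-2.41) among them, and none higher, beside 17.1% lower and 12.5% higher of all genes. Grin2b, the NMDA receptor subunit of young neurons, had 220 UMIs against 241 (-0.13) and the AMPA subunit Gria2 316 against 348 (-0.14). Grin2a, the mature NMDA subunit, stood at 88.8 CPM in wild-type, 461 in total-labelled and 1803 in astrocyte-labelled members and at 2710 to 3369 in granule nuclei. Camk2a (-2.29), the calcineurin subunit Ppp3ca (-1.22) and the vesicle protein Syt1 (-1.02) were lower out of 9 measured of 20 mature synapse genes. Of 8 measured GABA-A receptor and chloride transport genes, Gabra4 (-2.10) and Gabrb2 (-1.31) were lower. With so few genes measured, these list counts are not read as differing from the 17.1% of all genes. Slc12a2, which loads young neurons with chloride, had 15 UMIs (109 CPM, 61.3 to 181, against 51.2), and Slc12a5, which extrudes it in mature neurons, 5 (36.5 CPM, 11.8 to 85.1, against 82.3). Those intervals were wide, and 1 of them included the level of granule nuclei.

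Endocannabinoid genes were too sparse in these 51 nuclei for the list rule, with Plcb1 alone past 50 UMIs (-0.83). Mgll itself had 4 UMIs, 0 in wild-type, 2 in total-labelled, 2 in astrocyte-labelled and 0 in the neuron-labelled members. This is 29.2 CPM (7.95 to 74.7) against 118 in granule nuclei and 117 in the other nuclei of the same cluster. Dagla, which makes the lipid that MAGL removes, stood at 36.5 CPM (11.8 to 85.1) against 133. Cnr1, the cannabinoid receptor, was on the other side, at 80.3 CPM (40.1 to 144) from 11 UMIs against 15.3. The Notch, Wnt and Bmp list and the cell death list had no gene past 50 UMIs, and 10 of 23 and 2 of 14 of their genes were at 0.

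Within the Igfbpl1-led cluster many of these genes differed with the number of the 6 markers detected. The cluster held 625 nuclei with 0, 107 with 1, 61 with 2 and 54 with 3 or more, of which 51 were members, at median depths of 1536, 2173, 2204 and 2524 UMIs. Sema3c went from 10.7 CPM through 84.0 and 548 to 860, and Dcc from 1309 through 2007 and 5765 to 7091. Robo1 (271, 768, 2452 and 2288 CPM) and Prox1 (289, 408, 790 and 769 CPM) were highest with 2 markers. In the other direction Kcnip4 went from 11614 CPM through 10232 and 3312 to 1331, Grin2a from 3032 through 2655 and 1108 to 499, and Ntng1 from 528 through 452 and 89.2 to 20.8. Mgll stood at 125 CPM (105 to 148), 116 (77.7 to 167), 63.7 (30.5 to 117) and 27.7 (7.55 to 71.0). Nuclei with 2 markers, which were not members, lay between those with 1 and those with 3 or more in Sema3c, Dcc, Kcnip4, Grin2a, Ntng1 and Mgll. Deeper nuclei reveal more markers, the 4 groups differ in depth, and the genes were chosen after their values were seen.

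**Figure D5:**
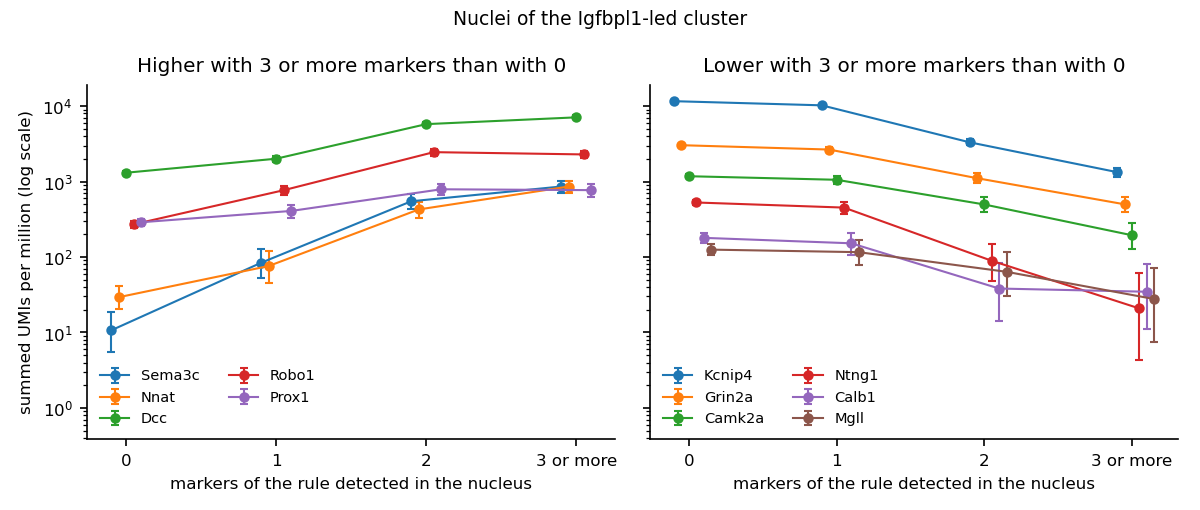
Summed level in CPM on a log axis in nuclei of the Igfbpl1-led cluster, grouped by how many of the 6 marker genes each nucleus held (625, 107, 61 and 54 nuclei). Bars are exact Poisson 95% intervals. Left, Sema3c and 4 other genes that are higher with 3 or more markers than with 0, of which Robo1 and Prox1 are highest with 2; right, Kcnip4 and 5 others that are lower.

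Set against granule-like nuclei of the same library, members were most frequent in wild type. In all 6 granule-like clusters wild type had 24 among 1997 nuclei (1.20%, 0.771 to 1.78) and the total-labelled library 43 among 4997 (0.861%, 0.623 to 1.16). The astrocyte-labelled library had 7 among 2193 (0.319%, 0.128 to 0.657) and the neuron-labelled one 7 among 1790 (0.391%, 0.157 to 0.804). Members of the Igfbpl1-led cluster made up 0.801% (16 nuclei), 0.620% (31), 0.137% (3) and 0.0559% (1). The cluster as a whole held 83, 557, 81 and 126 nuclei, so 19.3% of its wild-type, 5.57% of its total-labelled, 3.70% of its astrocyte-labelled and 0.794% of its neuron-labelled nuclei were members. Without called doublets, 16, 9, 3 and 1 members of the Igfbpl1-led cluster were left, or 0.811%, 0.208%, 0.143% and 0.0567% of granule-like nuclei. The wild-type share then stood above each of the others. With 1 library per genotype this cannot be told apart from a difference between libraries. The share of doublets that Scrublet was told to expect rose with the number of barcodes, 9369 in wild type and 31243 in the total-labelled library. The part of that setting in the order was not tested. At a Leiden resolution of 1.0 in place of 1.5 the members in granule-like clusters were 10, 14, 5 and 6 (0.509%, 0.289%, 0.231% and 0.336%).

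Transcripts summed over all granule-like nuclei, members or not, gave a count that does not depend on the cutoff of 3 markers. Igfbpl1, itself a gene of the rule, stood at 5.50 (4.44 to 6.73), 7.30 (6.29 to 8.43), 2.24 (1.55 to 3.13) and 0.946 (0.504 to 1.62) CPM. Sema3c stood at 8.57 (7.23 to 10.1), 10.5 (9.32 to 11.9), 3.29 (2.44 to 4.34) and 2.55 (1.77 to 3.54) CPM. For Sema3c, which the rule did not use, the intervals of the wild-type and total-labelled libraries lay above those of the other 2. Without called doublets Igfbpl1 stood at 5.37, 4.53, 2.18 and 0.894 CPM and Sema3c at 8.02, 6.26, 2.82 and 2.53 CPM. The total-labelled values then lay below wild type, with overlapping intervals, and above the other 2 libraries. Sox11 did not show this order, at 45.8, 49.3, 42.6 and 46.9 CPM, and neither did Nnat, at 30.3, 40.3, 35.6 and 27.2 CPM. Without called doublets Nnat was at 29.1, 24.1, 32.4 and 26.1 CPM, which moved the total-labelled library from the highest to the lowest. Adamts18, Mtss1 and Fam163a, also outside the rule, did not separate the libraries as Sema3c did. Adamts18 was at 10.94, 11.09, 13.56 and 10.99 CPM. Mtss1 was at 12.5, 19.4, 11.3 and 11.7 CPM. For Mtss1 and Fam163a the wild-type intervals overlapped those of both cell-specific knockout libraries. Without called doublets Fam163a was at 1.69, 1.53, 1.69 and 1.49 CPM. Oligodendrocyte nuclei differed between the libraries in the same direction, at 4.59%, 6.02%, 0.506% and 0.768% of nuclei, and the part of this in the shares above was not tested.

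Members of the 5 other granule-like clusters were closer to mature granule nuclei. They came from all libraries (8, 12, 4 and 6) and were deep, with a median of 10638 UMIs. Of 2396 genes, 33 (1.38%) were at least 2-fold higher and 7 (0.292%) lower. Among the higher were Sema3c (217 CPM against 3.06), Pcdh15 (log2 ratio 1.93), Robo1 (1.53), Plxna2 (1.35) and Dcc (1.00), which were also higher in the Igfbpl1-led members. Yet Calb1 stood at 101 CPM (68.8 to 142), Ntng1 at 497 (422 to 581) and Kcnip4 at 9594, so mature genes were present. In 21 of these 30 members 3 or more of the 8 mature granule markers were detected, against 2 of the 51 Igfbpl1-led members, which were shallower.

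The 25 members of the Ebf2 Ebf3 cluster were the main carriers of Eomes and came from the wild-type (8) and total-labelled (17) libraries. All 25 held Ebf2 (1136 CPM) and Ebf3 (667 CPM), transcription factors of the early B-cell factor family, against 1.45 and 1.06 CPM in granule nuclei. Calb2 stood at 228 CPM (162 to 313), Postn at 403 (312 to 511), the vesicular glutamate transporter Slc17a6 at 168 (112 to 243) and Sema3a at 715 (593 to 856). Prox1 was at 42.1 CPM (16.9 to 86.7) against 334 in granule nuclei and Sema3c at 0. The 8 listed markers of Cajal-Retzius cells summed to 775 CPM against 28.7 expected, of which Ebf3 made up 667 CPM. Trp73 was the only one at 0, while Cacna2d2 had 6 UMIs, Lhx1 and Ndnf 4 each, Reln 2, and Lhx5 and Nhlh2 1 each. Of these the rule itself limits Trp73, Lhx1 and Lhx5. Eomes in this cluster thus went with other genes than those of the Igfbpl1-led members, of which 1 held Eomes. Of 1243 genes, 133 (10.7%) were at least 2-fold higher and 185 (14.9%) lower than in granule nuclei, and 6 of 9 granule lineage factors were lower, among them Prox1, Zbtb20 and Nfib. The other 267 nuclei of the cluster had similar levels of Ebf2 (929 CPM) and Calb2 (205 CPM) without meeting the rule.

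The 33 members of the Zic4 Ano1 cluster all held Igfbpl1 and Dcx. Beside them stood the transcription factors Zic1 (186 CPM) and Zic4 (218 CPM) and the chloride channel Ano1 (390 CPM), each under 1 CPM in granule nuclei. Inhibitory transcripts were present, with Dlx6os1 at 200 CPM (152 to 259) and the vesicular GABA transporter Slc32a1 at 69.1 (42.2 to 107). Of the 10 listed inhibitory markers 2 had enough UMIs, of which Dlx6os1 was higher and Adarb2 lower than in granule nuclei. The list summed to 625 CPM against 1756 expected. Gad1 was at 34.5 CPM in these members and at 205 in the other nuclei of the cluster, a gap made by the rule, which allows 1 Gad UMI. Prox1 (13.8 CPM) and Zbtb20 (200 CPM against 4518 in granule nuclei) were low, and Sema3c was at 0. Of 2223 genes, 249 (11.2%) were at least 2-fold higher and 234 (10.5%) lower than in granule nuclei. The other 1047 nuclei of the cluster held Igfbpl1 at 120 CPM, so Igfbpl1 marked the cluster as a whole.

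Over all 224 members, the contrast with granule nuclei mixed these groups. Of 7907 genes, 510 (6.45%) were at least 2-fold higher and 179 (2.26%) lower, and without the total-labelled library 306 of 5159 were higher. Among the 15 highest genes with the same direction in each library, Sema3c (290 UMIs against 6.14, log2 ratio 5.35) and Adamts18 (3.74) stood beside Sox1ot (5.42), Pld5 (4.79) and Mob3b (3.74). By cluster, Adamts18 was highest in the Igfbpl1-led members (591 CPM), Sox1ot (394), Pld5 (728) and Mob3b (601) in the Zic4 Ano1 members, and the muscarinic receptor Chrm2 (679) in the Ebf2 Ebf3 members, while Kcnip1 stood at 349 and 367 CPM in the Zic4 Ano1 and Ebf2 Ebf3 members. The same 15 included Fam163a, Hs3st2, Plcb4, Tmem163, Pde1c, Kcnip1, Lin28b, Chrm2 and Foxp2 at 3.10 to 4.34. The lowest were the granule genes Dsp (-2.37), C1ql2 (-2.03), Plekha2 (-2.02) and Glis3 (-2.02), followed by Anxa11, Pacsin2, Il1r1, Slc4a4, Smoc2, Adarb2, Arsj, Gabrd, Gpc4, Sipa1l2 and Stxbp6 at -1.95 to -1.64. Dsp, C1ql2 and Stxbp6 were among the markers by which the granule nuclei had been chosen. They were bound to be high in the reference, so nothing is read from their low rank. In the axon guidance list 10 of 28 measured genes were higher and none lower, and in the young neuron cytoskeleton list 7 of 17, namely Dpysl3, Gap43, Stmn2, Dpysl5, Tubb3, Stmn1 and Tuba1a. Beside the medians of 0.66 and 0.55 of these lists, the median of all genes was 0.09. The other lists had medians between -0.42 and 0.42, with 1 to 3 genes higher and 0 to 2 lower in each.

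The 85 members spread over the other 28 clusters carried transcripts of several cell types. The 6 oligodendrocyte markers summed to 513 CPM against 42.3 expected. In 17 of the 85 nuclei 3 or more of these 6 markers were present. Sema3c was present in 30 of them (120 CPM), so some of these members held the marker of the Igfbpl1-led members too. Of 5299 genes, 310 (5.85%) were at least 2-fold higher and 166 (3.13%) lower than in granule nuclei. These members were the deepest apart from those of the other granule-like clusters, at a median of 8914 UMIs.

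The make-up of the members by cluster differed between the knockout libraries and wild type, and some of the genes that differed most belong to those clusters. In the total-labelled library 100 of 4590 genes (2.18%) were at least 2-fold higher and 71 (1.55%) lower. In male nuclei only, which are 123 of the total-labelled and 23 of the wild-type members, these were 196 and 130 of 3957. Its highest were Ano1 (57 UMIs against 0 in wild type), Ano2, Sox1ot, Cntnap5c and Unc13c, and its lowest Mndal, Prkg2, Snx3, Postn and Apoe, the last of which turned direction with at least 4 markers (0.95). Ano1 and Sox1ot belong to the Zic4 Ano1 cluster, which held 18 total-labelled members and 1 wild-type member. In the astrocyte-labelled library 79 of 2243 genes (3.52%) were higher and 87 (3.88%) lower, Cntnap5c, Tafa1, Kcnc2, Dgkb and Col25a1 leading the higher and Ebf2 (0 UMIs against 91), Sema3a (1 against 68), Ptgds, Eps8 and Tmem163 the lower; Tafa1 turned direction in male nuclei only (-0.62). In the neuron-labelled library 81 of 2325 (3.48%) were higher and 85 (3.66%) lower, with Mob3b, Stac, Grik1, Tafa1 and Dgkb highest and Ebf2 (0 against 91), Ptgds, Erbb4 and Sema3a among the 5 lowest. Of these neuron-labelled values, Mob3b, Stac and Grik1 turned direction in male nuclei only (log2 ratios -0.57, -1.99 and -1.21), and Tafa1 (-0.0077) and Erbb4 (2.54) with at least 4 markers. All members of the Ebf2 Ebf3 cluster, where Ebf2 and Sema3a are high, entered the rule by Eomes, which is not listed in these 2 libraries. They had 14 and 12 nuclei in that cluster and no member there, against 8 members among 56 wild-type nuclei. The part of the unlisted Eomes and of the small number of nuclei in this was not tested. Differences between genotypes within members cannot be told apart from these differences in make-up, or from the mix of sexes, which also differed between the libraries.

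Among endocannabinoid transcripts in members, the intervals of the ratio to wild type included 0 in all 3 knockout libraries for Mgll, Cnr1, Dagla and Faah. Mgll had 24 UMIs in wild-type (74.0 CPM), 62 in total-labelled (65.7 CPM), 24 in astrocyte-labelled (103 CPM) and 16 in neuron-labelled members (64.2 CPM). Against wild type these are log2 ratios of -0.21 (-0.87 to 0.57), 0.47 (-0.41 to 1.35) and -0.18 (-1.22 to 0.77), beside -0.31, 0.20 and 0.10 in granule nuclei. At this depth differences within these wide intervals were not detectable. Abhd6, another lipase of the same substrate, was at 58.6 CPM in wild-type and 112 in neuron-labelled members (0.92, 0.05 to 1.86), with a ratio of -0.06 in granule nuclei. Gde1, a phosphodiesterase, was lower in total-labelled members (-0.82, -1.52 to -0.06), with -0.23 in granule nuclei. Of the 15 listed genes looked at in all 3 knockout libraries, only Abhd6 and Gde1 had such intervals without 0, each in a single library. Among so many 95% intervals some leave out 0 by counting error alone, so nothing is read from these 2. Igfbpl1, which chose the members, was at 296, 210, 158 and 116 CPM in wild-type, total-labelled, astrocyte-labelled and neuron-labelled members.

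The rule has a threshold of 3 markers, and 167 of the 224 members sat on it, with 49 at 4, 7 at 5 and 1 at 6. Just outside, 237 nuclei held exactly 2 markers and met the other criteria. Of these 16.5% lay in the Igfbpl1-led cluster, as did 19.8% of nuclei with exactly 3 and 31.6% of those with 4 or more. Igfbpl1 stood at 187 CPM with 2 markers, 168 with 3 and 336 with 4 or more, and Sema3c at 76.1, 135 and 270 CPM. The first is a gene of the rule and its levels follow from the grouping, while Sema3c is not.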

How the data were processed

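The survey held 4 libraries of single-nucleus RNA from mouse hippocampus, 1 per genotype. The authors deposited, per the file headers, matrices of raw UMI counts per gene and barcode. Per the submitters' processing notes, Cell Ranger ARC 2.0.0 and the mm10 build were used, and the sources used here give no settings for them. Each library held between 81623644 and 193307038 UMIs over all barcodes. Genes not listed in a library were set to 0 there.

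Barcodes with at least 500 detected genes were kept and members chosen by the marker rule. The members and gene lists were chosen with earlier results of these data known, and the genes named for the Igfbpl1-led cluster after its values were seen. Nuclei were scaled to 10000 UMIs and clustered with scanpy 1.11.5 (2000 variable genes, 40 principal components, 15 neighbours, Leiden resolution 1.5, igraph 0.11.9) without the genes of the rule, sex-linked and mitochondrial genes and Mgll. A cluster held a marker when at least 10% of its nuclei had it, at 2-fold or more over other nuclei, and was named from 3 held markers of 1 list, with a name withheld where its leading genes went against it. Scrublet was run on each library with 0.8% expected doublets per 1000 barcodes. Called doublets were kept, and values without them are given as an alternative.

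Member UMIs were summed and compared with the sum expected from granule nuclei of the same libraries, as log2((observed + 1)/(expected + 1)). Genes needed 50 observed plus expected UMIs, and a difference of 2-fold counted as called. Named genes are the 15 highest and 15 lowest with at least 100 UMIs, for all members with the same direction in each library and outside the rule, and for each knockout library the 5 highest and 5 lowest with at least 50 UMIs. A few genes that these rules select are not reported here. Knockout libraries were set against the wild-type library, which all 3 comparisons share. With 1 library per genotype no test was possible, and the 95% intervals (exact Poisson, conditional binomial or Clopper-Pearson) cover counting error only. The ratios and intervals were run on simulated counts with counting error alone, without variation between nuclei or libraries. That run checks the calculation only and not the members. Gene positions are from GENCODE M21, which held 435 of 437 genes looked up. Python 3.11.15, numpy 2.4.6, scipy 1.17.1 and pandas 2.3.3 were used. Alternatives were the number of markers required, the required marker, depth, doublets, the mitochondrial share, the sex of nuclei, the reference, scaling, library weights, the UMI minimum, the pseudocount and leaving out each library.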

Additional observations from a re-analysis of the deposited data

How the results depend on the processing

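No paired analysis was possible because each genotype has 1 library and no replicate numbers. Some alternatives were chosen after seeing the data: thinning to 1000 UMIs, not counting Eomes, the other Leiden resolutions, and all those for the Igfbpl1-led cluster and for shares of granule-like nuclei. The cause of each change below was not tested unless fewer nuclei or genes entered by construction. Shares of members (wild type, then total, astrocyte and neuron knockout labels) were 0.161%, 0.107%, 0.0375% and 0.0565% with at least 4 markers, 0.125%, 0.110%, 0.0290% and 0.0476% at 2000 UMIs, and 0.0869%, 0.0333%, 0.00944% and 0.0114% at 1000 UMIs. The total-labelled share was 0.229% without called doublets and 0.365% with Eomes not counted, and the astrocyte-labelled share 0.0695% in male nuclei. As shares of granule-like nuclei, members were 0.509% (wild type) and 0.289% (total-labelled) at a Leiden resolution of 1.0, and 0.370% (total-labelled) without doublets. Members of the Igfbpl1-led cluster were 0.300%, 0.220% and 0% of wild-type, total-labelled and astrocyte-labelled granule-like nuclei with at least 4 markers, and 0.208% of total-labelled ones without doublets.

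Of all members against granule nuclei, 170 genes were higher and 102 lower with at least 4 markers, 867 were higher with a minimum of 20 UMIs, and leaving out each library gave 306 (without the total-labelled library) to 481 higher and 123 to 177 lower. For the Igfbpl1-led cluster the counts were 36 and 64 with at least 4 markers, 69 and 112 without doublets, 363 and 314 with 20 UMIs, 68 and 109 without the wild-type library, and 53 and 77 without the total-labelled one, the highest with a library left out being 122 and 170. None of the 360 values of named genes for all members, or of the 420 for the Igfbpl1-led cluster, changed direction under the alternatives run. Part of this was fixed in advance, since the UMI minimum and the pseudocount cannot turn a direction. For all members, genes were named only with the same direction in each library, so leaving out a library could not turn it either. The named genes were also the most extreme by rank, so no robustness is read from this. For the total-labelled library against wild type the counts were 48 and 21 with at least 4 markers, 196 and 130 in male nuclei, and 288 and 367 with 20 UMIs. For the astrocyte-labelled library they were 47 and 42 with at least 4 markers and 212 and 351 with 20 UMIs, and for the neuron-labelled library 208 and 339 with 20 UMIs. Log2 ratios to wild type reversed for Apoe in the total-labelled library (0.95 with at least 4 markers) and Tafa1 in the astrocyte-labelled library (-0.62 in male nuclei). In the neuron-labelled library they reversed for Mob3b (-0.57), Stac (-1.99) and Grik1 (-1.21) in male nuclei, and for Tafa1 (-0.0077) and Erbb4 (2.54) with at least 4 markers.

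Over the alternatives, counts of listed genes higher in all members ranged from 1 to 2 for granule lineage factors, 4 to 9 for the cytoskeleton, 8 to 11 for axon guidance, 1 to 4 for GABA-A receptors, 2 to 4 for glutamate receptors, 0 to 2 for mature synapse, 2 to 3 for ion channels, 1 to 2 for endocannabinoid genes, 0 to 4 for Notch, Wnt and Bmp signalling and 0 to 2 for cell death. Counts of lower genes ranged from 0 to 3 for granule lineage factors, 0 to 2 for GABA-A receptors, glutamate receptors and mature synapse, 1 to 2 for ion channels, and 0 to 1 for axon guidance, endocannabinoid, Notch, Wnt and Bmp and cell death genes. Depth limits what is seen: members of the Igfbpl1-led cluster had 137061 UMIs in all.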
